A study of Mus musculus with 16 samples.

Results

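Cultured mouse spermatogonial stem cells treated with siRNA against Bcl6b were compared with the same kind of culture treated with siRNA against Pou3f1. The comparison used the arrays labelled Bcl6b knockdown replicates 2 to 4 and Pou3f1 knockdown replicates 1 to 4, which are 7 of the 16 samples of the study. Bcl6b knockdown replicate 1 was kept apart, because its signal was shifted toward the 3' end of transcripts, and is given only as a check. Spermatogonial stem cells renew themselves in the testis and give rise to sperm. The cultures came from germ cells of C57BL/6 mice enriched for the surface protein Thy1 and were grown without serum in the presence of FGF2 (1 ng/ml), GDNF (20 ng/ml) and GFRA1, the GDNF co-receptor (150 ng/ml). All 4 groups of 4 received siRNA for 30 h: a negative control, Etv5, Bcl6b or Pou3f1. The knockdowns were transient, and the sequences and number of siRNA oligonucleotides per target are not given in the sources used here. The loss of a target and any other effect of its oligonucleotides on the cells therefore cannot be told apart. Whether the replicates of a group are separate cultures is not stated in the labels. The p-values therefore cover only the spread between these samples, which may be technical.

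Bcl6b encodes a zinc finger repressor related to BCL6, and Pou3f1 encodes a POU domain transcription factor. Both are known in these cells as genes that respond to GDNF and support self-renewal. The genes that separated the knockdowns most belong to the type I interferon response. In that response, sensors of foreign RNA and DNA raise interferons through IRF factors. Secreted interferon then acts through its receptors and JAK kinases on transcription factors that bind interferon-stimulated response elements (ISRE) in promoters of antiviral genes.

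The 15 arrays other than Bcl6b knockdown replicate 1 were alike in quality. Their median intensity lay between 15.6 and 17.1 and their mean correlation with each other between 0.996 and 0.997, against 0.975 for replicate 1. On the log2 scale, the 3' control probe set of Gapdh less its 5' one gave -0.53 to -0.45 on these arrays and 1.03 on replicate 1, and for Actb 0.62 to 0.76 and 3.08. Of 18193 genes on the array, 11122 passed the filter on dim signal and were tested. Precision is limited by the number of arrays. A gene is called here when limma's Benjamini-Hochberg adjusted p was under 0.05, and differences are log2 of intensity plus 1, Bcl6b knockdown minus Pou3f1 knockdown, unless stated. All samples were bulk RNA, in which fewer cells of a type and less RNA per cell cannot be told apart.

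Between the knockdowns, 320 genes were higher in Bcl6b knockdown (2.88% of those tested) and 250 were higher in Pou3f1 knockdown (2.25%). The sides were unlike in size. On the Bcl6b side 34 genes differed at least 2-fold and 93 at least 1.5-fold, with a median absolute difference of 0.35. On the Pou3f1 side 1 gene, Bcl6b itself, differed at least 2-fold and 11 at least 1.5-fold, with a median of 0.27. The 8 interferon lists held 92 of the genes higher in Bcl6b knockdown and 1 of those higher in Pou3f1 knockdown, which left 228 and 249 genes outside them. A general list of chemokines and cytokines is counted among these 8 lists throughout, so the interferon genes counted here include its members. The arrays of the groups did not overlap in 312 of the 320 genes and in 244 of the 250. Over all tested genes, Bcl6b knockdown arrays lay entirely above Pou3f1 knockdown arrays in 6.83% and entirely below in 9.43%.

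To show the sequence context of the genes at the head of the Bcl6b side, their promoters were read from RefSeq (GRCm38.p6), 250 bases before the gene start, and searched on both strands for the ISRE core GAAANNGAA. Of the genes named for the size of their difference, those with a match are printed here, 5 of the interferon lists and Trim12c from outside them. They lie at chr12:26456453-26456702 (minus strand), chr5:92348890-92349139 (minus), chr2:62646256-62646505 (minus), chr8:61927837-61928086 (plus), chr5:120907526-120907775 (minus) and chr7:104353350-104353599 (minus). Each is written 5' to 3' on the gene's strand, and capitals mark matches to the core or its reverse complement.
Rsad2: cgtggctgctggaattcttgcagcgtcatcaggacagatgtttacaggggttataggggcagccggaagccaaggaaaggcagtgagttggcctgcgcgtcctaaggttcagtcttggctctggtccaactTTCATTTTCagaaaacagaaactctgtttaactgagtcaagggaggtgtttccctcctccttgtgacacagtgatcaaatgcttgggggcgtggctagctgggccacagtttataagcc
Cxcl10: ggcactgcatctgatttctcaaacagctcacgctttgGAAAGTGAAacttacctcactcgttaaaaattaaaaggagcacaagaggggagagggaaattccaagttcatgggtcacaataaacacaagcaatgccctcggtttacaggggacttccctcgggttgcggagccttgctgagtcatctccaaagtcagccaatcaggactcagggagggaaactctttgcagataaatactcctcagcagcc
Ifih1: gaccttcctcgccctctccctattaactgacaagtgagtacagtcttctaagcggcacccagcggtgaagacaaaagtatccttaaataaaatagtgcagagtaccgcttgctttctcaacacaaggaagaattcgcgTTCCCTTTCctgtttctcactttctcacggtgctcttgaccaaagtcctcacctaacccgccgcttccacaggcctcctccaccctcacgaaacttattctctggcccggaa
Ddx60: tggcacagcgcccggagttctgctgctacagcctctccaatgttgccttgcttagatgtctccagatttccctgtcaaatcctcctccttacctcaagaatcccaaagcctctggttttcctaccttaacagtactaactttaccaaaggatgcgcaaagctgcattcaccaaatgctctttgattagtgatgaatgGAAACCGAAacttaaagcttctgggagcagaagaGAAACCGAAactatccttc
Oas1a: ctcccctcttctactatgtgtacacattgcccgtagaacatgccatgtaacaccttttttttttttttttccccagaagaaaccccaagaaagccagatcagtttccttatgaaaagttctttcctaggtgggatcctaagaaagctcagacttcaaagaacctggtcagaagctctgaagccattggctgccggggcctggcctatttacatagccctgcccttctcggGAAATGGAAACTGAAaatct
Trim12c: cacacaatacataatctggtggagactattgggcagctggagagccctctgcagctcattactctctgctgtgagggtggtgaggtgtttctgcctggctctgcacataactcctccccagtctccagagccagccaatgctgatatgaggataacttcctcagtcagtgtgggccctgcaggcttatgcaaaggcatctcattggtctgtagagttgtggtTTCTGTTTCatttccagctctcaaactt

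Rsad2, Cxcl10, Ifih1 and Trim12c had 1 match each, and Ddx60 and Oas1a had 2, which overlap in Oas1a. The promoters read for Cmpk2, Oasl1, Sp100, Trim34a and Herc6 had no match. These are also interferon genes named for the size of their difference, so the printed promoters are not typical of all such genes. The match nearest to the start began 14 bases before it in Oas1a, 19 in Ddx60 and 28 in Trim12c. Over the interferon genes called higher in Bcl6b knockdown, 33.0% of 88 promoters held the core. This share was 12.5% of 48 promoters for interferon genes not called, 10.8% of 231 for the other genes higher in Bcl6b knockdown and 6.3% of 270 for genes higher in Pou3f1 knockdown. It was 5.99% of 11620 promoters of tested genes and 7.13% of all 32851 promoters in the table. The octamer ATGCAAAT, which POU factors bind, was in 1.14% of the promoters of called interferon genes and in 2.22% of those higher in Pou3f1 knockdown, against 1.6% of all. The palindrome TTCNNNGAA, bound by STAT and BCL6 proteins, was in 10.2% and 5.93%, against 7.02%. The NF-kB site GGANTTTCC was in 3.41% (3 promoters) and 0.741%, against 1.07%. In the interferon genes not called, these 3 motifs were in 2.08%, 14.6% and 8.33% of promoters. Each is a higher share than in the called ones, but on few promoters: 1, 7 and 4 of 48 against 1, 9 and 3 of 88. Matches of different motifs may overlap, and a match is no evidence of binding.

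Each siRNA target was lower in its own knockdown. Bcl6b intensity was 611, 718 and 791 in the 3 Bcl6b knockdown arrays and 1658, 1567, 1714 and 1421 in Pou3f1 knockdown. The difference was -1.17 ± 0.11 (SE; adjusted p 2.67e-06). Control arrays lay between 1341 and 1526, so the 3 Bcl6b knockdown arrays lay below control, while 3 of the 4 Pou3f1 knockdown arrays lay above the control range and 1 inside it. The difference of Pou3f1 knockdown from control was 0.13 and not called. Bcl6b was also low in Etv5 knockdown, at 608 to 899. Pou3f1 intensity was 589, 673 and 568 in Bcl6b knockdown and 393, 354, 519 and 393 in Pou3f1 knockdown, a difference of 0.57 ± 0.09 (adjusted p 9.27e-04). Control arrays lay at 644 to 692, above all 4 Pou3f1 knockdown arrays. A second, dimmer Pou3f1 probe set differed by 0.73 (adjusted p 0.0104 over all probe sets).

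**Figure D1:**
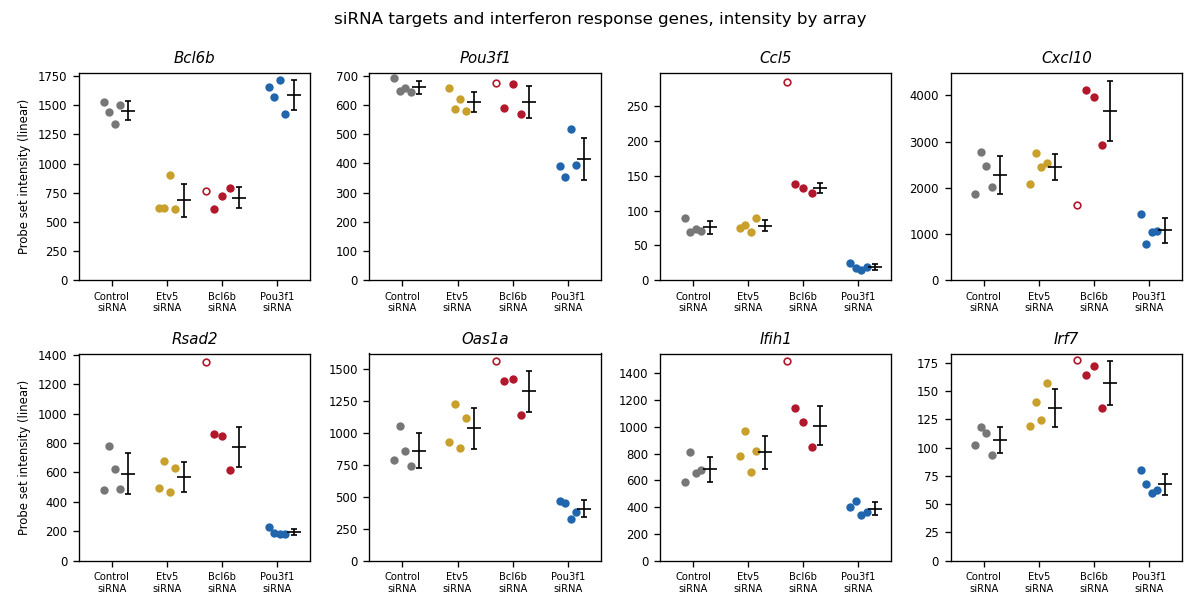
Probe set intensity (linear, from 0) of both siRNA targets and 6 interferon response genes in each array. Dots are arrays, black dashes and bars the mean ± SD, and the open circle Bcl6b knockdown replicate 1, which is not in the mean. In each of the 6 interferon genes the Pou3f1 knockdown arrays lie below all control arrays and the 3 Bcl6b knockdown arrays lie above all Pou3f1 knockdown arrays.

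Ccl5, a chemokine that draws T cells and monocytes, had the largest difference of all tested genes. Its intensity was 138, 133 and 125 in Bcl6b knockdown and 24.4, 17.0, 14.4 and 19.6 in Pou3f1 knockdown. Control arrays lay between 69.2 and 90.0, between the knockdowns. The difference was 2.77 ± 0.14 (adjusted p 1.06e-09), or 6.8-fold, with 0.79 in Bcl6b knockdown and -1.97 in Pou3f1 knockdown against control, each called. Cxcl10, another chemokine induced by interferon, read 4109, 3959 and 2920.1 against 1433, 782, 1043 and 1063. Its difference was 1.78 ± 0.17 (adjusted p 1.88e-06), with control arrays again in between, at 1864 to 2768. Of 15 chemokine and cytokine genes tested, 5 were called, all higher in Bcl6b knockdown. Besides these they were Cxcl11 (0.63), Ccl7 (0.23) and Ccl2 (0.20). Without Bcl6b knockdown replicate 3, Cxcl11 and Ccl7 lost their calls (adjusted p 0.0937 and 0.09). Il6, Cxcl1, Csf1 and Lif were not called, with differences of 0.17, 0.07, 0.12 and -0.01.

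Across all 8 interferon lists, chemokines and cytokines included, 138 of 171 genes on the array were tested. Of the 138, 92 were higher in Bcl6b knockdown and 1 was lower. The median difference of the 138 was 0.50, against -0.02 over all tested genes, and 123 differences were above 0. These lists were drawn up knowing that this response differed here, so the counts describe them and are no independent support. Against control, with shared control arrays, 51 of the 138 were higher and 2 lower in Bcl6b knockdown (median 0.19), while 3 were higher and 84 lower in Pou3f1 knockdown (median -0.30). Among all tested genes 4.08% were higher and 6.82% lower in Bcl6b knockdown than in control, and 4.32% were higher and 7.11% lower in Pou3f1 knockdown. Against Etv5 knockdown, 7 of the 138 were higher and 3 lower in Bcl6b knockdown, beside 1.6% of all tested genes that were higher and 2.93% that were lower. In Pou3f1 knockdown 92 of the 138 were lower than in Etv5 knockdown, beside 3.77% of all tested genes.

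Sensors of RNA and DNA were higher in Bcl6b knockdown for 11 of 15 tested members, with a median difference of 0.59. Ifih1, which encodes the RNA sensor MDA5 and whose promoter is printed above, read 1143, 1036 and 850.0 against 405, 448, 342 and 361. All 3 arrays of Bcl6b knockdown lay above the control range of 592 to 811, and all 4 of Pou3f1 knockdown below it. The difference was 1.37 ± 0.13 (adjusted p 1.75e-06). Ddx60, a helicase linked to RNA sensing, read 417, 345 and 290.4 against 132, 112, 98.7 and 112, a difference of 1.61. Dhx58 (LGP2), Tlr3, Zbp1 and Eif2ak2, the double-stranded RNA kinase PKR, differed by 1.13, 1.05, 1.03 and 0.68. Ddx58 (RIG-I) and Sting1, the adaptor of cytosolic DNA sensing, differed by 0.58 and 0.59. The members not called were Mavs, the adaptor downstream of the RNA helicases (-0.16), Cgas (0.11), Aim2 (-0.01) and Ifi204 (0.58).

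Receptors, kinases and transcription factors of the pathway were mostly not called: 4 of 17 were higher in Bcl6b knockdown and 1 was lower. Irf7, the interferon-inducible IRF factor, read 164, 172 and 135 against 80.4, 68.0, 59.7 and 62.5, with controls at 93.1 to 118. Its difference was 1.21 ± 0.12 (adjusted p 3.28e-06). Usp18, which damps signalling at the interferon receptor, differed by 1.34. Irf9 and Stat2, which encode factors that act at ISRE sites, differed by 0.61 and 0.58. The interferon receptor genes Ifnar1 and Ifnar2 differed by -0.08 and 0.07, the kinases Jak1 and Tyk2 by 0.06 and 0.02, and Irf3 and Irf1 by 0.05 and 0.07, none called. Ifngr2, a receptor chain of interferon gamma, was the member of these lists that was higher in Pou3f1 knockdown, with a difference of -0.34. Its arrays read 197 to 234 in Bcl6b knockdown and 257 to 297 in Pou3f1 knockdown.

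The OAS family includes enzymes that make the second messenger that activates RNase L. All 6 tested members were higher in Bcl6b knockdown. Oas1a read 1407, 1419 and 1138 against 469, 449.6, 327 and 383, with controls at 743 to 1049. The difference was 1.70 ± 0.14 (adjusted p 4.86e-07). Oasl1, Oas2, Oasl2, Oas1b and Oas1c differed by 1.58, 1.20, 1.20, 0.96 and 0.60.

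Of 28 antiviral effector genes, 20 were higher in Bcl6b knockdown, with a median of 0.81. Rsad2 (viperin) read 859.8, 847 and 616 against 228, 191, 183 and 181, a difference of 1.97 ± 0.16 (adjusted p 5.86e-07). Controls lay between 482 and 778, so the Pou3f1 knockdown arrays were low while Bcl6b knockdown overlapped control, and the difference from control was 0.40 and not called. Its 3 probe sets differed by 1.97 to 2.38. Cmpk2, the neighbour of Rsad2 on the genome, differed by 1.87, Mx1 by 1.76, Herc6 by 1.22 and Ifit1 by 1.21. Ifitm1, Ifitm2, Ifi27 and Samhd1 were not called, with differences from -0.04 to 0.08.

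All 10 inducible GTPases tested, which act on intracellular parasites and vacuoles, were higher in Bcl6b knockdown, with a median of 0.90. Igtp read 2293, 2153 and 1818 against 1098, 915, 837 and 961, a difference of 1.13. Genes of MHC class I antigen presentation differed less: 9 of 14 were higher, with a median of 0.31. Their regulator Nlrc5 and the peptide transporter gene Tap1 differed by 0.84 and 0.77, and the heavy chain genes H2-K1 and H2-D1 by 0.28 and 0.27. The immunoproteasome genes Psmb9 (0.43) and Psmb8 (0.36) were called by a small margin, and they lost their calls without replicate 2 of Bcl6b knockdown (adjusted p 0.0935 and 0.249). Of 33 other induced genes 27 were higher, with a median of 0.48, led by Sp100 (1.30), Trim34a (1.26) and Trim30a (1.07).

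**Figure D2:**
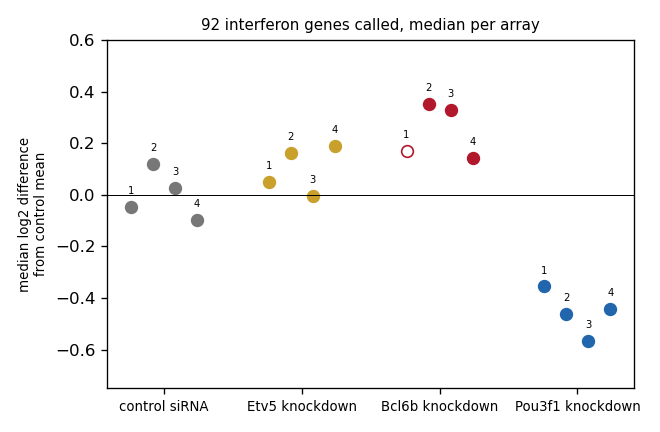
Median log2 difference from the control mean over the 92 interferon genes called higher in Bcl6b knockdown, for each array, with replicate numbers above the dots and Bcl6b knockdown replicate 1 as an open circle. The 92 genes were chosen on the Bcl6b and Pou3f1 knockdown arrays, so the gap between those groups is fixed by the choice. The choice also favours places of both groups away from the control and Etv5 knockdown arrays. The order of arrays within a group is not fixed by it.

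Within Bcl6b knockdown the 92 genes did not move alike in all arrays. Their median difference from the control mean was 0.35, 0.33 and 0.14 in replicates 2, 3 and 4, and replicate 4 was the lowest of the 3 arrays in 82 genes. Replicate 4 lay near the highest control array, at 0.12, and below Etv5 knockdown replicates 2 and 4, at 0.16 and 0.19. In Pou3f1 knockdown the medians were -0.36, -0.46, -0.57 and -0.44, all below the lowest control array at -0.10. The choice of these genes favours such a place below control. Replicate 1 was the highest of the 4 arrays in 63 genes and replicate 3 the lowest in 60. Without Bcl6b knockdown replicate 4, 91 interferon genes were called in either direction, against 93 with it.

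**Figure D3:**
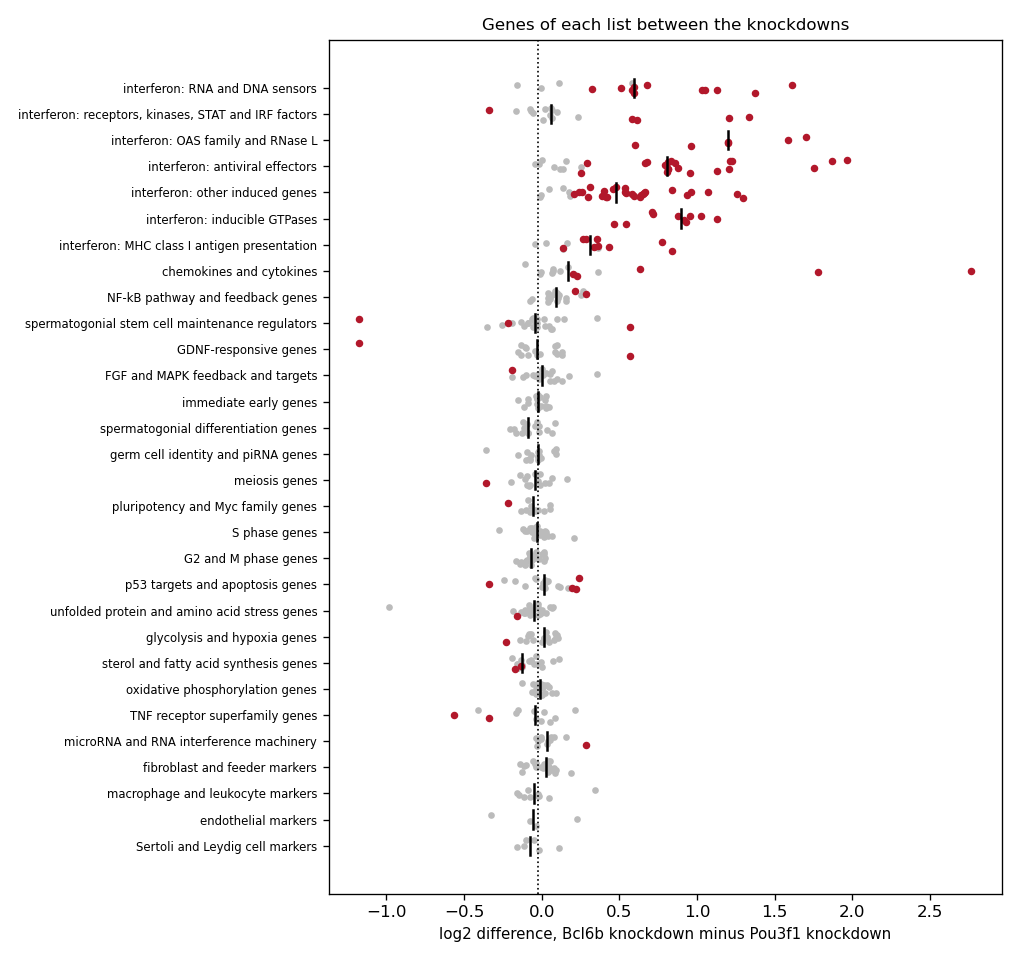
Difference between the knockdowns (log2, Bcl6b minus Pou3f1) of every tested gene by list. Red dots are called genes, grey dots genes not called, black bars the list medians, and the dotted line the median of all tested genes. Called genes gather on the right in the interferon lists and are few in the others.

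Outside the interferon lists, 228 genes were higher in Bcl6b knockdown, 33 of them at least 1.5-fold. Trim12a and Trim12c, of the same TRIM gene cluster as Trim34a and Trim30a, differed by 1.12 and 0.94, with Trim12c at 1285, 1123 and 888 against 606, 626, 510.4 and 535. Their probe sets can be shared between near-identical TRIM copies, so the values of single copies are uncertain. Plac8, a small cysteine-rich protein gene also expressed in leukocytes, read 464, 452 and 419 against 266, 283, 212 and 201, a difference of 0.90. Cfp, which encodes the complement factor properdin, differed by 0.79. The perforin-like gene Mpeg1, best known from macrophages, differed by 0.83, but at intensities of 26.3 to 35.7 against 13.8 to 19.8. Its call was lost without replicate 2 or replicate 3 of Bcl6b knockdown, at adjusted p of 0.0715 and 0.147.

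Zbtb20, a transcriptional repressor of the same zinc finger class as Bcl6b, read 573, 569.7 and 598 in Bcl6b knockdown and 262, 303, 307 and 292 in Pou3f1 knockdown. The difference was 1.00 ± 0.12 (adjusted p 2.33e-05). Controls lay at 309 to 417, and the differences from control were 0.65 in Bcl6b knockdown and -0.34 in Pou3f1 knockdown, each called. Etv5 knockdown arrays lay at 369 to 581, up to values above Bcl6b knockdown replicates 2 and 3. Bcl6b knockdown minus Etv5 knockdown was 0.28 and not called (adjusted p 0.209). All 9 probe sets of Zbtb20 differed the same way, by 0.82 to 1.09. Apod, which encodes a lipid-carrying apolipoprotein, read 398, 435 and 373 against 239, 208, 188 and 166, a difference of 1.01. Its difference from control was 0.71 in Bcl6b knockdown and called, and -0.30 in Pou3f1 knockdown and not called. A second Apod probe set, at a mean intensity of 3.71 and so below the array median, differed by -0.03.

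Insyn2a, an inhibitory synapse factor gene, had the largest difference outside the interferon lists among genes with a name that is not a clone name. It read 247, 240.0 and 223 against 67.7, 81.7, 106 and 71.9, a difference of 1.54 ± 0.23 (adjusted p 3.00e-04). Control arrays were spread from 75.1 to 197, over the values of both knockdowns. Mid1, a TRIM family ubiquitin ligase gene, read 113, 130.0 and 142 against 48.6, 79.7, 45.3 and 46.2, a difference of 1.24, with controls at 51.5 to 110.1. For both genes the other probe sets reached down to differences of -0.02 and -0.03, at mean intensities of 3.97 to 8.19, below the array median. Sgip1, a gene of endocytosis, differed by 1.02 at low intensity (22.4 to 27.5 against 10.3 to 14.5), and its call was lost without Pou3f1 knockdown replicate 1 or 2 (adjusted p 0.0577 and 0.0536). The transporter gene Slc16a4 differed by 0.89 and the zinc finger gene Zfp950 by 0.82, while Speer4cos, at 0.89, lost its call without Bcl6b knockdown replicate 2 or 3 (adjusted p 0.102 and 0.0706).

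**Figure D4:**
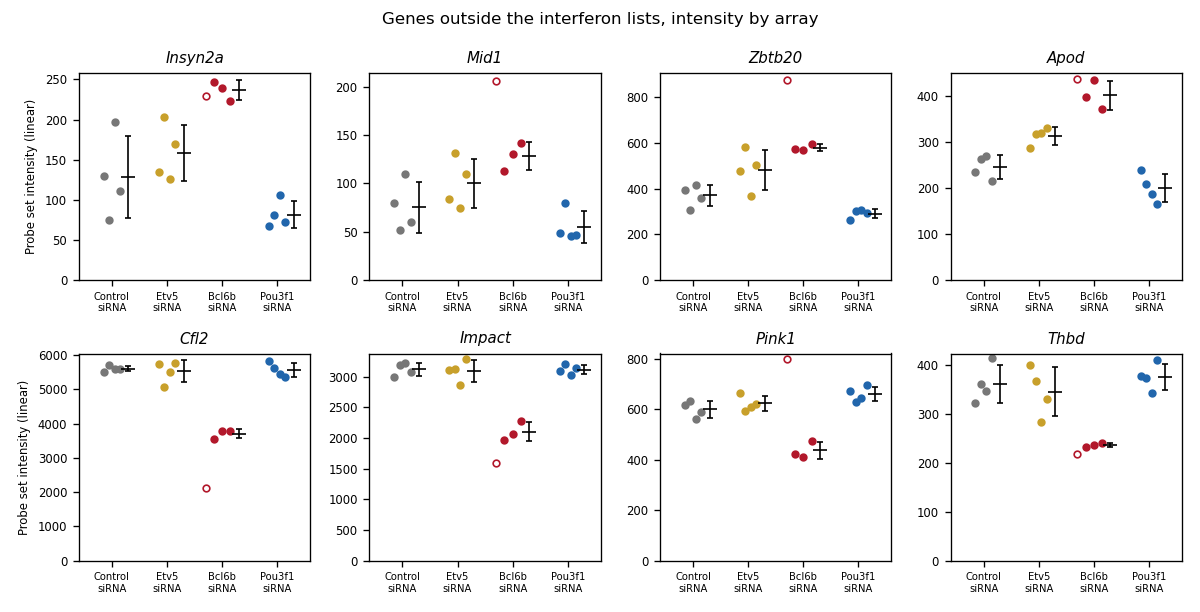
Probe set intensity (linear, from 0) of 8 genes outside the interferon lists in each array. Dots are arrays, black dashes and bars the mean ± SD, and the open circle Bcl6b knockdown replicate 1, which is not in the mean. The upper 4 genes are higher in Bcl6b knockdown, and for the lower 4 the 3 Bcl6b knockdown arrays lie below every array of the other groups.

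Long non-coding RNA genes, by the RefSeq biotype, stood among the genes outside the interferon lists, a group singled out after its values were seen. Of 227 such genes with a biotype that were higher in Bcl6b knockdown, 19 were long non-coding (8.37%). The count was 2 of 250 genes higher in Pou3f1 knockdown (0.8%) and 207 of 11108 tested genes (1.86%). Kcnq1ot1, the antisense RNA that silences the imprinted cluster around Cdkn1c, read 541, 512 and 490.3 against 208, 257, 329 and 235, a difference of 1.02 ± 0.18 (adjusted p 0.00157). Airn, the silencing RNA of the imprinted Igf2r cluster, read 94.9, 125 and 97.6 against 59.4, 54.7, 63.8 and 49.8, a difference of 0.88. For both, arrays of the groups did not overlap, which the rule that named them required. The 6 probe sets of Kcnq1ot1 ranged from -0.04 to 1.02. Those at mean intensities of 368, 217 and 68.8 differed by 1.02, 1.00 and 0.55. The others, at 4.26 to 6.25, lay below the array median. The 5 of Airn ranged from -0.03 to 0.95. Those at 77.9, 34.0 and 26.6 differed by 0.88, 0.95 and 0.06, and the others, at 6.11 and 7.70, lay below the median. The mean over probe sets, dim ones included, differed by 0.46 for Kcnq1ot1 (adjusted p 0.00155) and by 0.39 for Airn (adjusted p 0.0127).

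The nuclear RNAs Malat1 and Neat1, which sit in nuclear speckles and paraspeckles, differed by 0.37 and 0.35. Neat1 read 3549, 3596 and 3424 against 2693, 2911, 2858 and 2624, all 3 above all 4. Gdap10 and Hoxd3os1 differed by 0.78 and 0.68. The clone-named C130075A20Rik read 35.2, 45.6 and 25.02 against 9.30, 5.55, 10.8 and 6.81. The Pou3f1 knockdown values were below the array median, so the size of its difference is uncertain. The small nucleolar host genes Snhg11 and Snhg8 differed by 0.42 and 0.16. Against control, Neat1 and Hoxd3os1 differed by 0.37 and 0.76 in Bcl6b knockdown, both called, and by 0.02 and 0.08 in Pou3f1 knockdown, neither called. Kcnq1ot1 and Airn differed by 0.70 and 0.44 in Bcl6b knockdown and by -0.32 and -0.44 in Pou3f1 knockdown, of which the -0.32 was not called. Airn read 100.51 on control replicate 3, above Bcl6b knockdown replicates 2 and 4. Kcnq1ot1 read 571.85 on Etv5 knockdown replicate 2, above Bcl6b knockdown replicates 2 to 4. Control replicate 3 and Etv5 knockdown replicate 2 were the highest of their groups for both genes. They were also the highest for Insyn2a, Mid1, Slc16a4, Zfp950, Zbtb20, Cfp, Sgip1 and Trim34a, among others. Kcnq1ot1 was at 189 on Bcl6b knockdown replicate 1, below all Pou3f1 knockdown arrays.

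**Figure D5:**
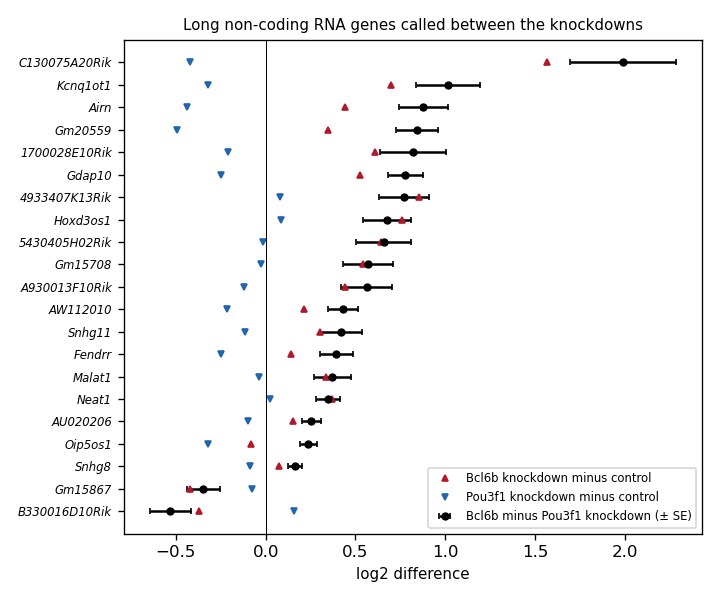
The 21 long non-coding RNA genes called between the knockdowns. Black dots are the difference Bcl6b minus Pou3f1 knockdown with its SE, red triangles Bcl6b knockdown minus control and blue triangles Pou3f1 knockdown minus control, all in log2 units; 19 of the 21 black dots lie right of 0. The size of the difference of C130075A20Rik is uncertain, since its Pou3f1 knockdown values are below the array median.

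Genes higher in Pou3f1 knockdown differed by less, and their values against control are given beside them. Cfl2, which encodes the actin-severing protein cofilin 2, read 3554, 3779.7 and 3781 in Bcl6b knockdown and 5819, 5616, 5441 and 5367 in Pou3f1 knockdown. Control arrays lay at 5509.9 to 5709.9. The difference was -0.59 ± 0.04 (adjusted p 3.15e-07), with -0.60 against control in Bcl6b knockdown and -0.01 in Pou3f1 knockdown. Its 3 probe sets ranged from -0.63 to 0.06. Thbd, the thrombomodulin gene, read 232, 237 and 239.8 against 377, 372, 343 and 409, with controls at 321 to 414. Its difference was -0.66, with -0.60 and 0.06 against control.

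Pink1, the kinase that marks damaged mitochondria, read 424, 411 and 475 against 671, 630.0, 645 and 695, a difference of -0.60 ± 0.06 (adjusted p 5.21e-06). Both probe sets agreed, at -0.60 and -0.58, but Bcl6b knockdown replicate 1 read 800.1, above every Pou3f1 knockdown array. Aldh6a1, a mitochondrial enzyme of valine breakdown, read 256, 253 and 274 against 384, 407, 378 and 493, a difference of -0.66. Impact, a regulator of the kinase GCN2, read 1974, 2068 and 2277 against 3102, 3210.2, 3025 and 3136, a difference of -0.57. A dimmer probe set of Impact differed by 0.46 in the opposite direction, and the mean over its probe sets by -0.04 (adjusted p 0.621). Against control, Pink1, Aldh6a1 and Impact differed by -0.46, -0.46 and -0.57 in Bcl6b knockdown, each called. In Pou3f1 knockdown they differed by 0.14, 0.20 and -0.001, none called. The integrin gene Itga8, the bicarbonate transporter gene Slc4a4 and the gene of the ARL2-binding protein Arl2bp differed by -0.59, -0.59 and -0.57. Each was called lower than control in Bcl6b knockdown and not called in Pou3f1 knockdown.

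Other genes at the head of the Pou3f1 side had another pattern against control. Ankrd29 read 59.0, 46.3 and 52.0 in Bcl6b knockdown and 77.5, 103, 67.5 and 72.0 in Pou3f1 knockdown, both above controls at 26.1 to 34.6. Its difference of -0.59 thus lay between values of 0.80 and 1.39 above control, each called, and it was lost without Bcl6b knockdown replicate 3 (adjusted p 0.0689). Strip2 differed by -0.67 and was called higher than control in Pou3f1 knockdown (0.52) and not lower in Bcl6b knockdown (-0.15). Its call was also lost without Bcl6b knockdown replicate 3 (adjusted p 0.0748). Ildr2 and the telomere nuclease gene Dclre1b differed by -0.68 and -0.63, with neither knockdown called against control. Without Bcl6b knockdown replicate 2 the call of Ildr2 was lost (adjusted p 0.0506), as was that of Dclre1b without replicate 3 (0.0504).

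Of 12 tested TNF receptor superfamily genes, 2 were higher in Pou3f1 knockdown and none in Bcl6b knockdown. Of all tested genes, 2.25% and 2.88% were, so the list is too small to set it apart from that background. Tnfrsf12a, the receptor of the cytokine TWEAK, read 638, 646 and 640.3 against 1025, 976, 891 and 907, with controls at 1057 to 1289.9. The difference was -0.56 ± 0.07 (adjusted p 1.88e-05), and both knockdowns were called below control, by -0.86 and -0.30. Eda2r, a receptor gene that p53 induces, differed by -0.34, with -0.54 and -0.21 against control, both called. Eda2r is also on the list of 21 p53 targets and apoptosis genes, of which 19.0% were called, beside 5.1% of all tested genes. It was the member higher in Pou3f1 knockdown, and Trp53inp1, Ccng1 and Zmat3 were higher in Bcl6b knockdown by 0.24, 0.22 and 0.20. Of these, Ccng1 and Zmat3 lost their call without replicate 2 of Bcl6b knockdown (adjusted p 0.0644 and 0.072). Cdkn1a, Mdm2 and Bbc3 differed by 0.12, 0.02 and 0.04 and were not called.

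The lists of stem cell and germ cell genes held few called genes, but 5.1% of all tested genes were called in either direction. In lists of this size, few or no called genes is near that share. The shares of stem cell maintenance regulators (11.1%) and GDNF-responsive genes (11.8%) lay above it and include both siRNA targets. Of 27 regulators of stem cell maintenance, the targets Bcl6b and Pou3f1 and the RNA-binding protein gene Lin28a were called. Lin28a read 1466, 1478 and 1456 against 1699.7, 1621, 1871 and 1645, a difference of -0.22, and its call was lost without any 1 of the 3 Bcl6b knockdown arrays, at adjusted p of 0.097 to 0.11. Etv5, Id4, Gfra1, Ret and Zbtb16 differed by 0.10, -0.06, -0.05, -0.09 and -0.03 and were not called. By limma's test no gene was called among 17 of spermatogonial differentiation, 18 of germ cell identity and the piRNA pathway or 18 immediate early genes, in which 2, 3 and 1 had an unadjusted p under 0.05. Of 17 GDNF-responsive genes the siRNA targets were the called members. Lin28a was also the called gene among 12 of pluripotency and the Myc family. Kit, Stra8 and Sohlh1 differed by 0.07, 0.03 and -0.03. Of 17 meiosis genes, the mismatch repair gene Mlh3 was called at -0.36, and the call was lost without Bcl6b knockdown replicate 4 (adjusted p 0.136). Among 20 FGF and MAPK targets, the cyclin gene Ccnd1 was called at -0.19, with -0.54 and -0.35 against control in Bcl6b and Pou3f1 knockdown, both called.

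Growth, stress and metabolism lists also held few called genes, which in lists of this size is near the 5.1% of all tested genes. The sterol (9.5%), NF-kB (10%) and RNA interference (8.3%) lists lay above that share. None of 24 S phase, 22 G2 and M phase or 22 oxidative phosphorylation genes was called by limma's test, and 3, 1 and 1 had an unadjusted p under 0.05. Of 21 sterol and fatty acid synthesis genes, Fdft1 (-0.17) and Sqle (-0.14) were called, both higher in Pou3f1 knockdown, and 19 of 21 differences were below 0, with a median of -0.12. Both calls were lost without replicate 2 of Bcl6b knockdown (adjusted p 0.2 and 0.166). In the stress and hypoxia lists, 1 of 24 genes (Asns, asparagine synthetase, -0.16) and 1 of 19 (Ndrg1, -0.23) were called. Each lost its call without replicate 3 of Bcl6b knockdown (adjusted p 0.102 and 0.0629). Ddit4, an inhibitor of mTORC1, had the largest difference of the stress list, -0.98, at 244 to 356 against 456 to 682, and was not called (adjusted p 0.0847). Of 20 NF-kB pathway genes, Bcl3 (0.29) and Ikbkb (0.21) were called, and Nfkbia, Tnfaip3 and Icam1 differed by 0.07, 0.05 and 0.04 and were not. In this list 18 of 20 differences were above 0, with a median of 0.09, beside 4474 of all 11122 tested genes. Bcl3 lost its call without Bcl6b knockdown replicate 4 (adjusted p 0.11) and Ikbkb without replicate 3 (0.0573). The 5 probe sets of Ikbkb ranged from -0.07 to 0.21, and their mean differed by 0.00 (adjusted p 0.95). Of 12 genes of the RNA interference machinery, Tnrc6b was called at 0.29 and lost without Bcl6b knockdown replicate 3 (adjusted p 0.0839), while Ago2 and Dicer1 differed by 0.03 and -0.02.

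All 9 germ cell markers, among them Ddx4, Dazl and Sall4, were well expressed in both knockdowns, and none was called (adjusted p from 0.213 to 0.918). Ddx4 read 7260 to 7713 in Bcl6b knockdown and 7089 to 7966 in Pou3f1 knockdown. The fibroblast and feeder markers, all 22 of which were tested, were abundant too. Their median control intensity lay above that of 96.1% of tested genes. Which cells of the cultures carried a difference between the knockdowns was not tested. By limma's test none of these 22 markers was called and 2 had an unadjusted p under 0.05. Their summed intensity was 239100 to 244100 in Bcl6b knockdown and 235300 to 241100 in Pou3f1 knockdown, and its part in the results was not tested. Of 18 macrophage and leukocyte markers, 8 stood below the array median on all 7 arrays, among them Adgre1, Itgam and the C1q genes, and none of the other 10 was called or had an unadjusted p under 0.05. Their summed intensity was 944 to 1085 against 945 to 1192. Of endothelial markers 9 of 13, and of Sertoli and Leydig cell markers 10 of 16, were below the median on all 7 arrays. Of the 4 and 6 tested, none was called by limma's test, and 0 and 1 had an unadjusted p under 0.05.

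Averaging over probe sets changed the size of many differences, and this mean takes in probe sets below the array median. With the mean over the probe sets of each gene, 74 of the 77 called genes named by rule could be tested, none changed sign, and 21 moved by over 1.5 times. Among these were Insyn2a (0.50), Tap1 (0.18), Trim34a (0.60), Trim12a (0.55), Apod (0.49), Cmpk2 (1.15), Zfp950 (0.32), Slc16a4 (0.44) and Cxcl11 (0.29), all still called. Apart from Zfp950, the dimmer probe sets of these genes had mean intensities of 3.63 to 13.6, below the array median. Zfp950 had a dimmer probe set at 74.5 that differed by 0.17. The call was lost for 8: Impact and Ikbkb, Psmb8 (0.15, adjusted p 0.134), Fdft1 (-0.07, 0.168), Tnrc6b (0.19, 0.0779), Asns (-0.12, 0.112), Lin28a (-0.18, 0.0612) and Psmb9, which has 1 probe set (adjusted p 0.05).

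Bcl6b knockdown replicate 1, which no call above used, was then set beside the 4 Pou3f1 knockdown arrays. The genes had been called on these same 4 arrays, which by itself raises the shares below. The shares are thus no independent support for the calls. It lay above all of them in 244 of the 320 genes called higher in Bcl6b knockdown (76.2%), against 49.0% of all tested genes. The share was 78.3% for the 92 interferon genes (72) and 75.4% for the 228 others (172). It lay below all of them in 152 of the 250 genes called higher in Pou3f1 knockdown (60.8%), against 33.0% of all tested genes. Ccl5 read 284 on it and Rsad2 1349.6, both above the other Bcl6b knockdown arrays. Ddx60 read 116, among the Pou3f1 knockdown arrays, and Stat2 66.4, below every Pou3f1 knockdown array. With replicate 1 in the fit, 161 genes were higher in Bcl6b knockdown and 82 in Pou3f1 knockdown, of which 160 and 82 were also called without it. Over genes, the residual SD had a median of 0.134 with it and 0.0840 without it.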

How the data were processed

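Per the labels' protocols, RNA of 16 samples was extracted with Trizol, treated with DNase and turned into cDNA with an oligo(dT) primer, and hybridised to Affymetrix Mouse 430 2.0 arrays. The deposited values are linear intensities, 1 per probe set and array (1.66 to 71511), summarised by the authors before deposit. Tools in the submitters' processing notes are Affymetrix Expression Console 1.1, MAS5, GCRMA and Partek 6.4. Which of them produced the intensities, and the genome build, are not given in the sources used here.

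Probe sets paired with 1 gene (34945 of 45037) were used, and where a gene had several, the brightest by mean log2 value stood for it. Genes above the array median on at least 4 arrays were tested. Values were log2(intensity + 1), which compresses differences of dim genes. With limma 3.58.1 in R 4.3.3, lmFit and eBayes with an intensity trend were fitted to the 4 groups over 15 arrays, without Bcl6b knockdown replicate 1, and two-sided p-values were adjusted by Benjamini-Hochberg over 11122 genes. The fit was tested on simulated data.

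Members, lists and tests were chosen with earlier results of these data known. Named genes were Bcl6b, Pou3f1 and Ccl5, the 15 largest called differences per direction whose arrays did not overlap, the 15 largest per direction outside the interferon lists, and per list at most 4 members that were called, or else the 2 of smallest p, without clone names. Other names were chosen after their values were seen. Alternatives changed the arrays, scaling, pseudocount, filter, probe sets, weights, trend, groups in the fit and replicate block. Promoters came from RefSeq (67 of 97 named genes matched).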

Additional observations from a re-analysis of the deposited data

Results flagged for a closer look

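Within groups of 4 arrays, 4 values of named genes stood apart by Dixon's criterion, out of 154 groups examined, where chance flags about 1 group in 20. Oasl1, of the OAS family, was lowest on control replicate 4, at 71.39, while the other control arrays lay between 91.7 and 95.3. Mid1 was highest on Pou3f1 knockdown replicate 2, at 79.73, against 45.3 to 48.6 on the other arrays of that group, and stayed below the lowest Bcl6b knockdown array. Strip2 was highest on control replicate 1, at 34.91, against 28.4 to 29.3. Fdft1, of sterol synthesis, was highest on control replicate 4, at 4255, against 3835 to 3907.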

How the results depend on the processing

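The interferon count of 93 called genes was 81 to 94 when each array was left out in turn, 70 with Bcl6b knockdown replicate 1 and 89 to 96 under the other settings. The count higher in Bcl6b knockdown, 320, was 190 to 359 with single arrays left out (190 without Bcl6b knockdown replicate 3) and 161 with replicate 1. The count higher in Pou3f1 knockdown, 250, was 122 to 314 with single arrays left out (122 and 129 without Bcl6b knockdown replicates 3 and 2), 82 with replicate 1, 455 with array weights and 136 in a fit of only the 2 groups. Directions turned in 3 named genes, all with replicate 1: Stat2 to -0.4889 (adjusted p 0.692), Ccl7 to -0.1808 (0.705) and Fdft1 to 0.01366 (0.958); the cause was not tested. Of 77 called named genes, 22 lost their call without at least 1 array, 25 with replicate 1 and 8 in the fit of 2 groups. Same-numbered arrays did not deviate together (correlations -0.0627, 0.0515 and -0.0143 for replicates 2, 3 and 4), so the numbers were not taken as paired. With the replicate block 290 genes were higher in Bcl6b knockdown and 210 in Pou3f1 knockdown, 92 interferon genes were called, and Speer4cos, Mlh3 and Fdft1 lost their call. Dim probe sets limit C130075A20Rik, Sgip1, Mpeg1, Ildr2 and Strip2, and the 3 against 4 arrays limit small differences throughout.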

Other observations

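Several genes outside the interferon lists have known antiviral or inflammasome roles. They are named here after their values were seen, no list of such genes was drawn up, and no count of them was made on either side. The antiviral factor gene Shfl was higher in Bcl6b knockdown by 0.67, and Mndal, Ifi207 and Ifi202b, of the same gene family as the sensor gene Aim2, by 0.59, 0.49 and 0.48. Pycard, the inflammasome adaptor ASC, was higher by 0.45, Trim26 and Rnf135 by 0.35 and 0.35, Parp11 by 0.34 and Casp4 by 0.25.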
